A study of Mus musculus with 35 samples.

Results

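Hox genes encode homeodomain transcription factors, and the signal of 37 of them was described here in 35 mouse colons, 1 sample per colon. The members were all genes whose symbol is Hoxa, Hoxb, Hoxc or Hoxd followed by a number and whose probe set carries 1 gene symbol, 37 of 19908 genes measured. Each member had 1 probe set. They comprised 10 genes of cluster A on chromosome 6, 9 of cluster B on chromosome 11, 9 of cluster C on chromosome 15 and 9 of cluster D on chromosome 2. By position within a cluster, 21 members were anterior (paralogue groups 1 to 8) and 16 posterior (groups 9 to 13).

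Hox genes lie in 4 clusters, and within a cluster the order of the genes mirrors the order in which they are expressed along the body, a property called collinearity. In the gut, the posterior genes next to the cluster end mark the hindgut, and Hoxa13 and Hoxd13 are needed to form the distal hindgut in mouse embryos. Hoxb13 marks the distal colon and rectum of the adult. The level of posterior relative to anterior Hox genes was therefore taken here as a presumed gauge of where along the colon a sample was cut. It could not be checked against the segment taken, and parts of it moved with the signal scale of the array, as given below.

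Total RNA from the colon of C57BL/6N mice was hybridised to Affymetrix Mouse Gene 1.0 ST arrays, 1 array per mouse, with 5 mice in each of 7 groups. Mice carrying a Reg3a transgene (Reg3a is an antimicrobial lectin of the gut) and wild-type mice were each either given 3% dextran sulfate sodium (DSS), a polymer that injures the colon epithelium, for 5 days followed by water, or left untreated. Axenic (germ-free) mice made up 3 further groups, all given DSS: recipients of flora from transgenic donors, recipients of flora from wild-type donors, both transplanted 3 weeks before DSS, and axenic controls. Colons were collected on day 12. The labels state neither the promoter and species of the transgene nor the colon segment taken. One label puts conventional animals after a transfer of microbes and axenic controls before one; titles and the design text were followed, and the flora status of the controls is not known. Mice are named by genotype (TG, WT), flora donor (TG, WT) or control (CT) and their number.

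The SD of the log2 signal over the probe sets of an array, called within-array SD below, ranged from 1.64 to 2.03, and its group means from 1.73 in axenic controls to 1.96 in recipients of wild-type flora. Epithelial markers (12 genes) averaged between 11.57 and 12.28 on the log2 scale in the 7 groups. The averages were 5.88 to 6.20 for 15 anal squamous markers and 6.33 to 6.50 for 17 small-intestinal markers. Pancreatic markers (9 genes) varied widely between mice of 1 group, from 6.84 to 11.20 in untreated wild-type mice. In bulk tissue, fewer cells of a type and less RNA per cell cannot be told apart.

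The promoters of the 5 members whose levels the results turn on most and that were among the 21 members with an entry in the RefSeq promoter table (build GRCm38.p6) are shown first, each from 250 bases before to 50 after the gene's start, 5′ to 3′ on the gene's strand. The 4 HoxD genes stand next to each other at the posterior end of their cluster on the plus strand of chromosome 2, and Hoxa13 ends cluster A on the minus strand of chromosome 6. Capitals mark TATAAA on either strand. The 300-base windows are chr2:74667975-74668274 for Hoxd13, chr2:74674763-74675062 for Hoxd12, chr2:74682073-74682372 for Hoxd11, chr2:74691641-74691940 for Hoxd10 and chr6:52260831-52261130 for Hoxa13.
Hoxd13: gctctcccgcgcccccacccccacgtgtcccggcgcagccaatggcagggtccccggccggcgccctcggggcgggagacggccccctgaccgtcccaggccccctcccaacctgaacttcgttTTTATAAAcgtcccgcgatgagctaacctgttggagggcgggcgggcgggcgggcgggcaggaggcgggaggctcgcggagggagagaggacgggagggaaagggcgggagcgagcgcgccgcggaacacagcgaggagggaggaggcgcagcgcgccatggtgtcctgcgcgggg
Hoxd12: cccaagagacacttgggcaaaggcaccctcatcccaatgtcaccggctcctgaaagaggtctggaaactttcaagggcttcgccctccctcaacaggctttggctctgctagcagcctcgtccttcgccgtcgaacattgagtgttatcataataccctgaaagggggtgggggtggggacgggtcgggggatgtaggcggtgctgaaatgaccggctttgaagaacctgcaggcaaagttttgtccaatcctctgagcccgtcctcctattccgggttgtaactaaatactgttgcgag
Hoxd11: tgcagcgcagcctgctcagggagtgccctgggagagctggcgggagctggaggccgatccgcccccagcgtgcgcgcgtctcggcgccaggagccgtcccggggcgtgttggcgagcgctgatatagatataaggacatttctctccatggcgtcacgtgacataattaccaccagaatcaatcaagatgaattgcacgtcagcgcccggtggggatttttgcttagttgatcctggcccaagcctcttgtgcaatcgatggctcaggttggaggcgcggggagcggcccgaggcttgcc
Hoxd10: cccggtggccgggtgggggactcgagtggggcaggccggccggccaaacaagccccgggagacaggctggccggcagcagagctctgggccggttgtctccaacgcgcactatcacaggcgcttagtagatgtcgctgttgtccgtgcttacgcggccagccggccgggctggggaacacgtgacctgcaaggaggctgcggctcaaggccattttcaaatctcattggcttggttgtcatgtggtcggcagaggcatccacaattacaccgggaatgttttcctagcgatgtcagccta
Hoxa13: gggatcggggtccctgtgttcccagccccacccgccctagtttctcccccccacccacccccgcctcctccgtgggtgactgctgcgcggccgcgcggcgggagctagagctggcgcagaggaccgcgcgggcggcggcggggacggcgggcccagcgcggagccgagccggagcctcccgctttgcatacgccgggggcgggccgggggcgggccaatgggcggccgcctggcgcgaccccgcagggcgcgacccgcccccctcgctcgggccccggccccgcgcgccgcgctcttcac

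The windows differ in base composition. Hoxd13 held 37 CpG dinucleotides at 74.3% GC and Hoxa13 45 at 81.0% GC, whereas Hoxd12 held 13. The 23 windows of the 21 members had a median of 15 CpG (range 4 to 45), against 7 over 32544 promoters in the table, of which 34.9% held 15 or more. TATAAA was found in 3 of the 23 windows and in 13.6% of all promoters. In Hoxd13 it begins 124 bases before the start and overlaps its own reverse complement. CCATAAA, a sequence bound by caudal-type (Cdx) factors, was in 1 of 23 windows and 2.77% of promoters. CAATAAA, a sequence bound by posterior Hox proteins, was in 1 of 23 and 4.51% of promoters. The GC box GGGCGG was in 9 of 23 and 35.9% of promoters, with 7 copies in the Hoxd13 window, some sharing bases. All motifs were searched on both strands.

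Members differed widely in how far they varied between mice. For 32 members the SD over 35 mice lay between 0.105 (Hoxc11) and 0.380 (Hoxa5) on the log2 scale. The other 5 were all posterior. Their SDs were 0.583 for Hoxd11, 0.683 for Hoxd10, 0.859 for Hoxa13, 0.933 for Hoxd13 and 1.24 for Hoxb13. Hoxb13 was also the member with the highest probe signal, at percentile 91.8 of all genes, followed by Hoxa13 at percentile 71.2. A total of 15 members lay above the 40th percentile, 7 anterior and 8 posterior, and all 9 HoxC genes lay at or below percentile 31.5, with Hoxc4 lowest. Probe signals of different genes are not on 1 scale, so these percentiles describe signal and not transcript number.

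**Figure D1:**
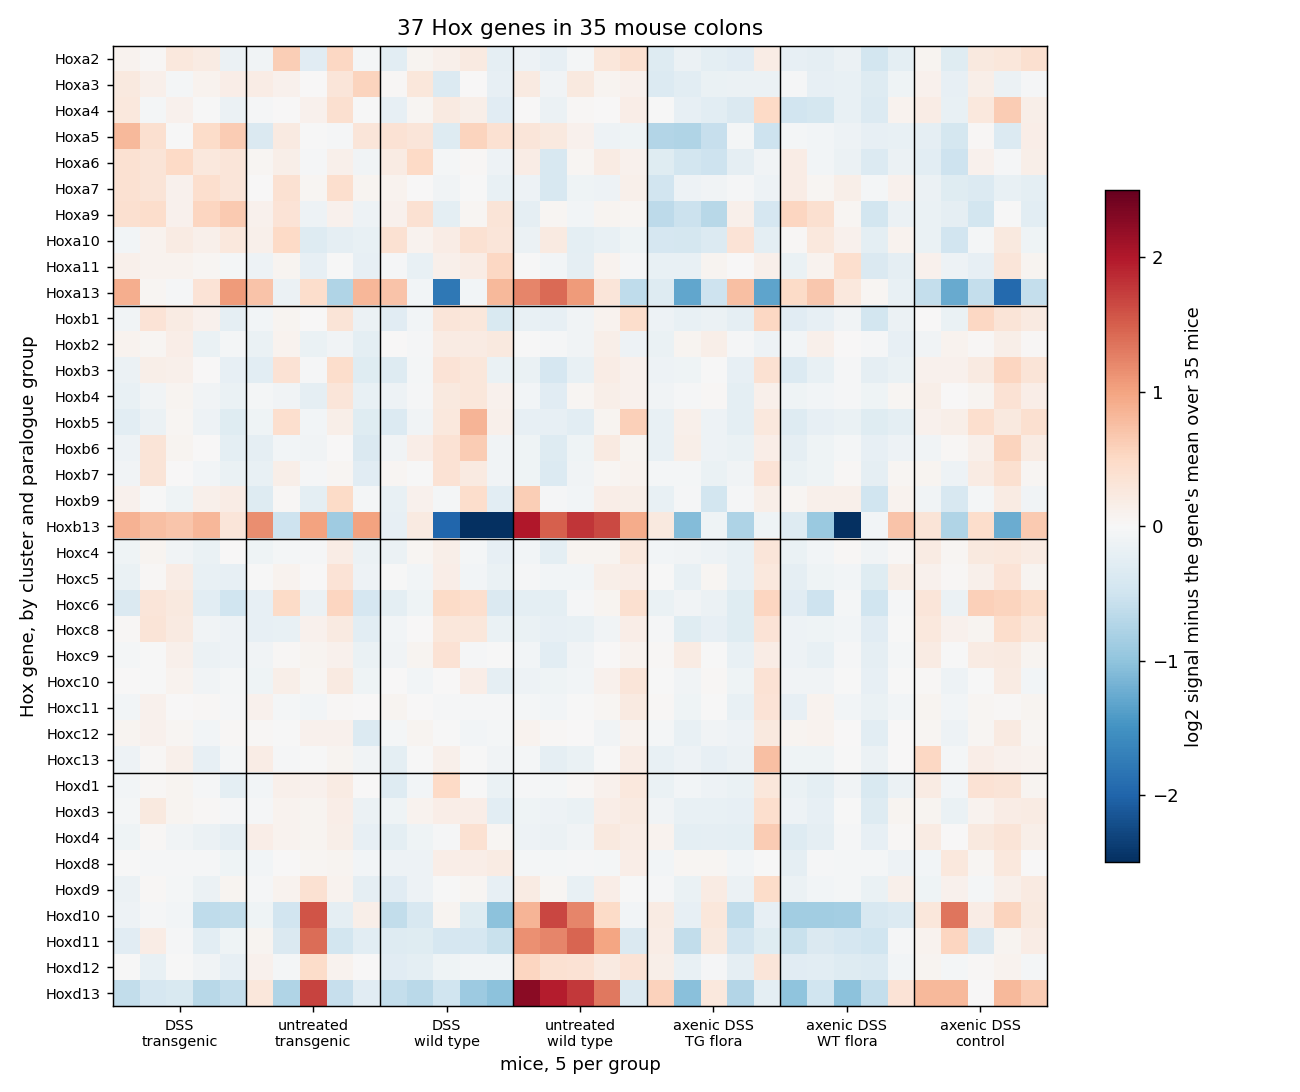
Log2 signal of 37 Hox genes (rows, by cluster and paralogue group) in 35 mice (columns, 5 per group), each as the difference from the gene's mean over all mice. Strong colour is concentrated in Hoxa13, Hoxb13, Hoxd10, Hoxd11 and Hoxd13. The untreated wild-type columns are high in these rows, except mouse WT9 in the last of these columns, which is low in Hoxa13, Hoxd11 and Hoxd13.

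Hoxb13 and the posterior HoxD genes Hoxd10 to Hoxd13 were lower in DSS-treated than in untreated wild-type colons, and anterior genes were not called. In limma's moderated test over all genes, 5 of 37 Hox genes were lower and 0 higher after DSS in wild-type mice, where 2.13% of all genes were called lower and 3% higher. All 5 were posterior: Hoxb13, Hoxd13, Hoxd12, Hoxd11 and Hoxd10. The median change over the 21 anterior members was 0.06, over the 16 posterior members -0.10, and over all genes -0.02 on the log2 scale.

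Hoxb13 had log2 signals of 9.21, 9.65, 7.43, 6.39 and 6.86 in the 5 DSS-treated wild-type mice, against 11.41, 10.90, 11.20, 11.07 and 10.33 in the untreated ones. Its groups did not overlap, and 3 of the DSS-treated mice lay far below the other two. The higher pair, WT52 and WT53, were also the mice of that group with high Xist, an RNA of the inactive X chromosome of females (10.86 and 11.19, against 4.79 to 5.38 in the other 3). Untreated wild-type mice held 2 with high Xist, and with Xist as a covariate the Hoxb13 change was -3.05 (adjusted p = 0.00582, limma). Without the covariate the change was -3.07 (SE 0.57, adjusted p = 0.0125, limma). Over the alternatives its adjusted p ran up to 0.0424.

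Hoxd13, which patterns the hindgut and the digits, had 5.92, 5.85, 6.02, 5.61 and 5.50 in DSS-treated wild-type mice and 8.77, 8.49, 8.28, 7.84 and 6.16 in untreated ones. All DSS-treated mice lay below all untreated mice, although untreated mouse WT9 lay just above them. The change was -2.13 (SE 0.41, adjusted p = 0.0144, limma). Its neighbour Hoxd12 was at 5.33 to 5.55 in DSS-treated and at 5.83 to 6.14 in untreated wild-type mice, a change of -0.52 (SE 0.09, adjusted p = 0.0108) with no overlap. These 3 genes were the members whose groups did not overlap, and 2.96% of all genes were non-overlapping and lower.

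Hoxd11 had 6.46, 6.48, 6.37, 6.37 and 6.23 in DSS-treated wild-type mice and 7.93, 8.01, 8.23, 7.78 and 6.42 in untreated ones. Hoxd10 had 6.48, 6.70, 7.15, 6.79 and 6.07 in DSS-treated mice and 7.93, 8.75, 8.31, 7.57 and 7.02 in untreated ones. Untreated mouse WT9 overlapped the DSS range in both genes and was also the lowest untreated wild-type mouse for Hoxd13 and Hoxb13. The changes were -1.29 for Hoxd11 (SE 0.28, adjusted p = 0.0263, limma) and -1.28 for Hoxd10 (SE 0.30, adjusted p = 0.0357). Both calls were lost when any 1 of 7 mice was left out, untreated WT7, WT8, WT10 or WT11 or DSS-treated WT52, WT53 or WT65, with adjusted p between 0.0513 and 0.101. The Hox count then was 3, except without untreated mouse WT11. The fits with a count of 3 called 424 to 675 genes in all, against 1022 with no mouse left out. With Xist as a covariate the Hoxd10 call was lost (-1.28, adjusted p = 0.0549). With the mean of 16 smooth muscle markers as a covariate, Hoxb13 alone of the 5 stayed called, while the number of all genes called was 252, against 1022 without it. The estimates under it were -1.95 for Hoxd13, -0.46 for Hoxd12, -1.11 for Hoxd11 and -1.12 for Hoxd10.

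No posterior gene of cluster A was called in this comparison. Hoxa13 was at 8.59, 7.81, 6.10, 7.82 and 8.70 in DSS-treated and at 9.10, 9.30, 8.95, 8.18 and 7.24 in untreated wild-type mice, and the groups overlapped. Hoxa10, an AbdB-class gene of the same cluster, averaged 6.71 ± 0.13 in DSS-treated and 6.35 ± 0.19 in untreated wild-type mice (SD, n = 5 each; adjusted p = 0.110, limma). The 5 posterior HoxC genes, Hoxc9 to Hoxc13, had group means between 4.92 and 5.65 over the 7 groups. Hoxb9, the other posterior HoxB member, averaged 7.12 ± 0.28 after DSS and 7.28 ± 0.27 untreated. Hoxd9, the remaining posterior HoxD member, was not called either. It was at 5.54 to 5.88 in DSS-treated and at 5.65 to 6.04 in untreated wild-type mice, with overlap.

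**Figure D2:**
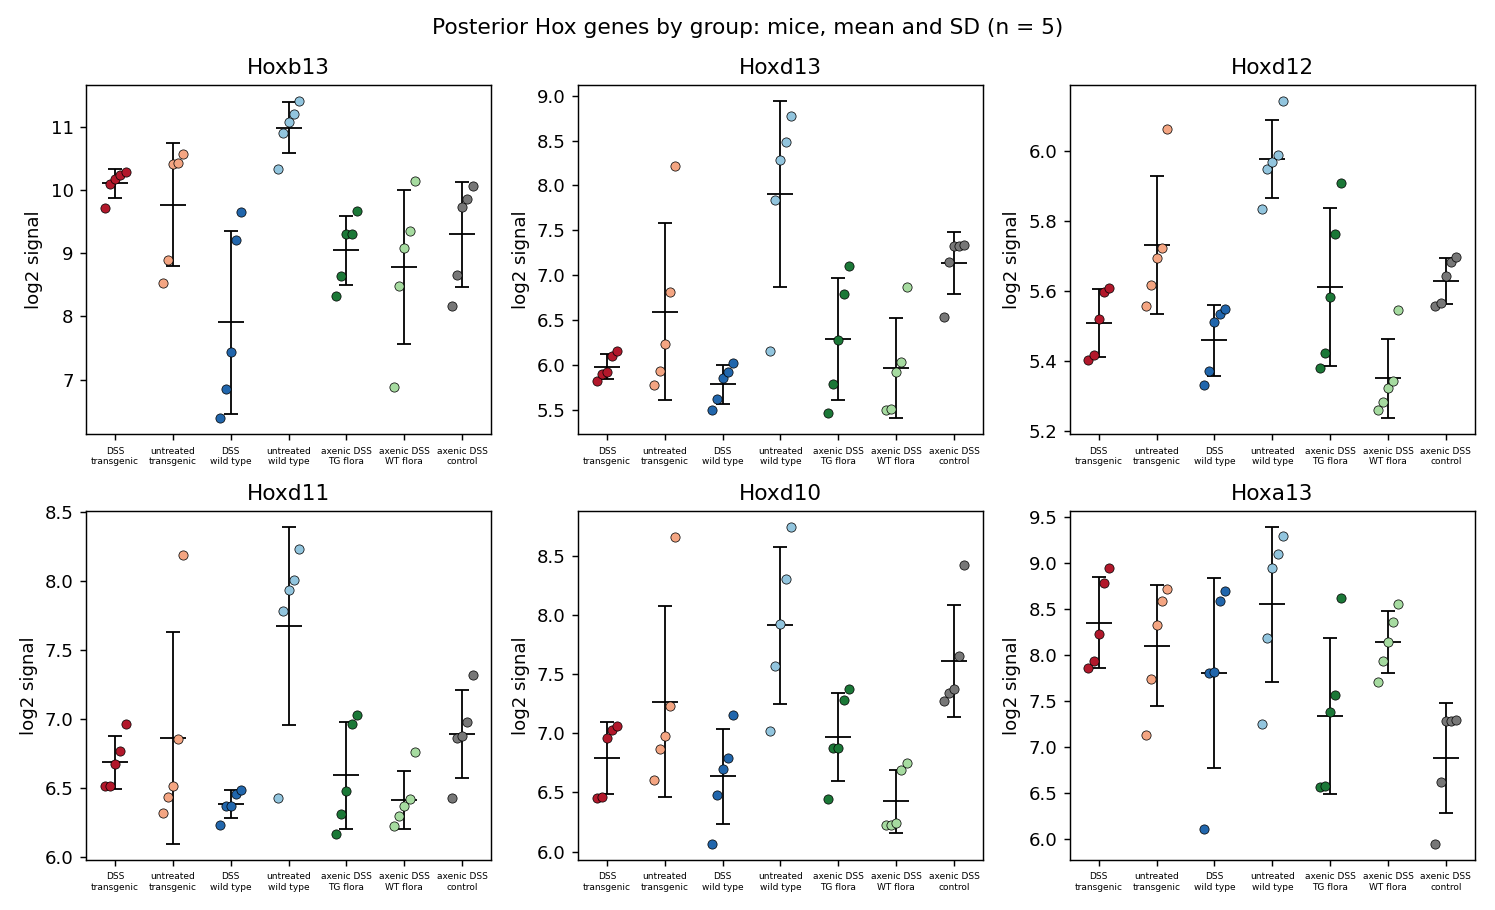
Log2 signal of 6 posterior Hox genes in each mouse (points) by group, with the group mean and SD (bars, n = 5), each panel on its own axis. Hoxb13, Hoxd13 and Hoxd12 of all DSS-treated wild-type mice lie below all untreated wild-type mice, whereas Hoxa13 overlaps between these groups.

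Markers moved with the same comparison. Among 12 distal colon markers 5 were called lower after DSS in wild-type mice, with a median change of -1.42. Among 11 immune markers 5 were called higher (median 0.83), and among 12 fibroblast markers 4 (median 0.61). No smooth muscle marker of 16 was called (median -0.29), and of 9 pancreatic markers 1 was called lower (median -2.10). The part of cell composition or of the colon position sampled in the Hox changes was not tested.

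In transgenic mice DSS was followed by no fall of the posterior genes that passed the test. Hoxa6 was the only member called, 1 of 37 where 4.55% of all genes were called, which is no more than the background. It had 7.43, 7.36, 7.54, 7.31 and 7.34 in DSS-treated transgenic mice and 7.10, 7.18, 7.01, 7.17 and 6.96 in untreated ones, a change of 0.31 without overlap (SE 0.08, adjusted p = 0.0454, limma). The call was lost when any 1 of the 10 mice was left out (adjusted p 0.0533 to 0.116). It was lost too with Xist as a covariate (adjusted p = 0.0582). Without DSS-treated mouse TG47, 2 other members were called among 1668 genes.

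Hoxb13 had 10.29, 10.17, 10.10, 10.24 and 9.72 in DSS-treated transgenic mice and 10.57, 8.89, 10.42, 8.53 and 10.43 in untreated ones. The untreated transgenic mice formed a high set of 3 and a low pair, mice TG28 and TG31, with the DSS-treated mice lying between them. Hoxd13 had 5.90, 6.10, 6.15, 5.82 and 5.92 in DSS-treated transgenic mice and 6.81, 5.78, 8.21, 5.94 and 6.23 in untreated ones. The change of Hoxd13 was -0.61 (SE 0.38, adjusted p = 0.306, limma). Of the untreated transgenic mice, mouse TG29 alone lay within the range of the 4 higher untreated wild-type mice for Hoxd13 (8.21), Hoxd11 (8.19) and Hoxd10 (8.66).

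The difference between the DSS effects was tested as an interaction, the effect in transgenic minus that in wild-type mice. No Hox gene was called at adjusted p under 0.05, where 0.156% of all genes were. An unadjusted p under 0.05 was found for 4 of 37 members and for 1478 of all 19908 genes. The estimate for Hoxb13 was 3.41 (SE 0.74, adjusted p = 0.0763, limma). It passed the threshold without DSS-treated wild-type mouse WT52 (adjusted p = 0.0449) or WT53 (adjusted p = 0.0249) and among genes above the 40th percentile (adjusted p = 0.0498). With Xist as a covariate it was 3.42 and also passed (adjusted p = 0.0227), and over all alternatives its adjusted p lay between 0.0227 and 0.162. For Hoxd13 it was 1.51 (SE 0.60, adjusted p = 0.510).

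**Figure D3:**
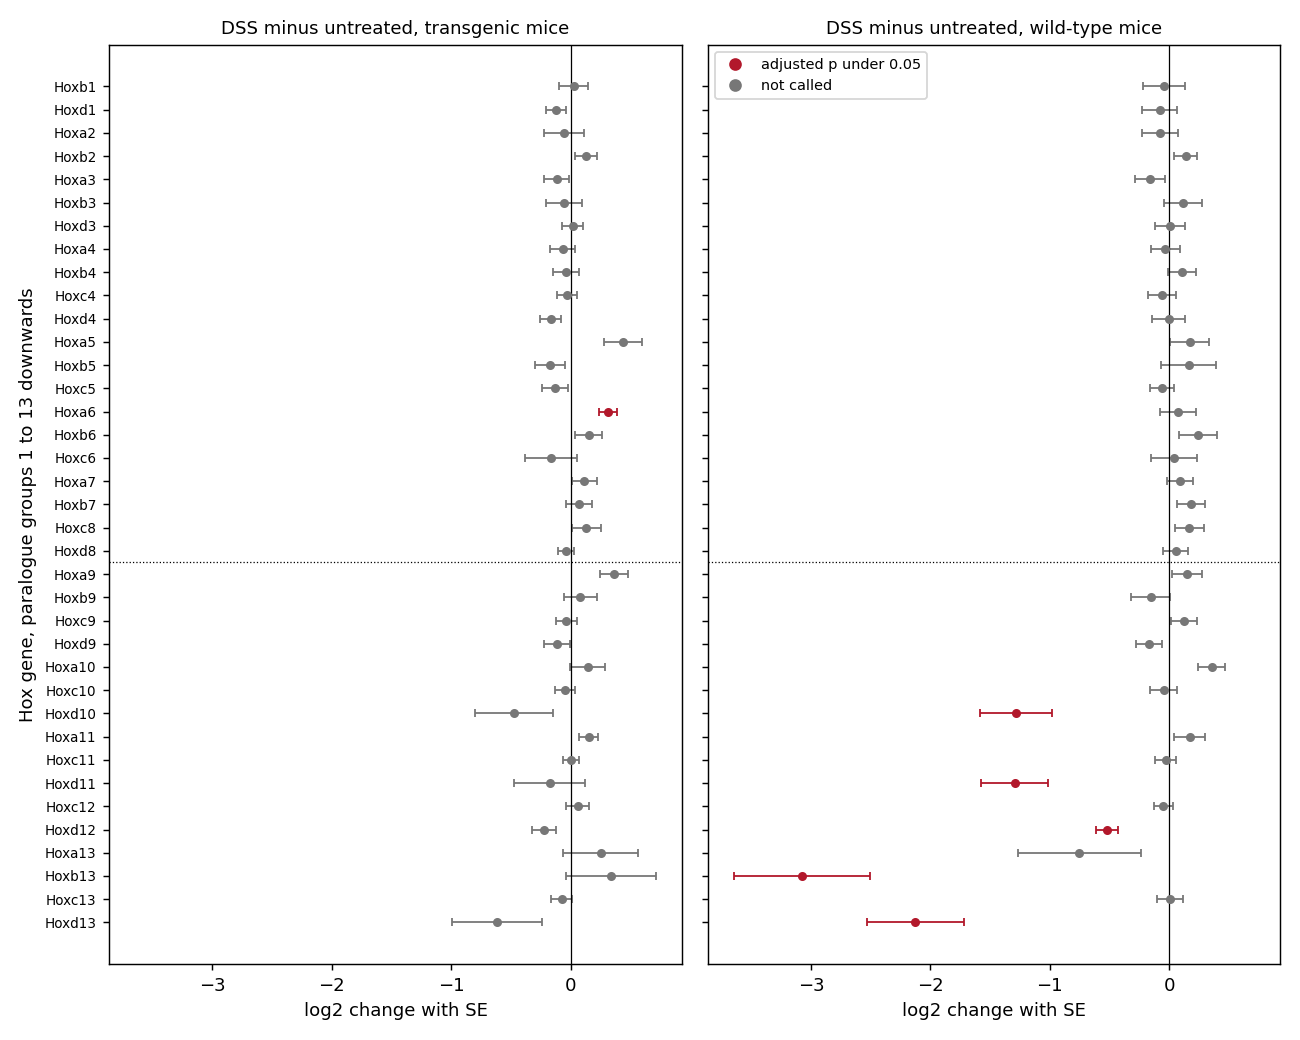
Log2 change of 37 Hox genes, DSS minus untreated, with the moderated standard error, in transgenic (left) and wild-type mice (right), by paralogue group from 1 at the top to 13 at the bottom; the dotted line separates anterior from posterior members. In wild-type mice the 5 called genes, in red, are all below the dotted line and lower after DSS, and in transgenic mice Hoxa6 is the called gene.

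Transgenic and wild-type mice were also compared within each treatment. After DSS, 0 of 37 Hox genes were called by limma, as against 0.00502% of all genes. An unadjusted p under 0.05 was found for 3 of 37 members and for 1030 of all 19908 genes. Hoxb13 averaged 10.10 ± 0.23 in DSS-treated transgenic mice and 7.91 ± 1.44 in DSS-treated wild-type mice (SD, n = 5 each), a difference of 2.19 (SE 0.56, adjusted p = 0.359). Hoxb13, Hoxa7 (difference 0.34) and Hoxd11 (0.30) were higher in all transgenic than in all wild-type mice, 3 of 37 members where 1.41% of all genes were non-overlapping and higher.

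Without DSS, 0 Hox genes were called (0.0753% of all genes). An unadjusted p under 0.05 was found for 4 of 37 members and for 996 of all 19908 genes. Hoxb13 averaged 9.77 ± 0.98 in untreated transgenic and 10.98 ± 0.41 in untreated wild-type mice, a difference of -1.22 (SE 0.40, adjusted p = 0.828, limma). Hoxd13 averaged 6.59 ± 0.99 in untreated transgenic and 7.91 ± 1.04 in untreated wild-type mice. In both genes the untreated transgenic mice spread over more than 2 log2 units, and the groups overlapped.

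In the axenic mice the comparison of wild-type flora with controls touched most of the transcriptome. There 20 of 37 Hox genes were called by limma, 18 lower and 2 higher, which is below the 67.3% called among all genes (35.2% lower and 32.1% higher) and so is no result about Hox genes. Hoxa13 was among the 2 higher genes, with 8.36, 8.56, 8.14, 7.94 and 7.71 in recipients of wild-type flora against 7.28, 6.62, 7.28, 5.94 and 7.29 in controls (change 1.26, SE 0.26, adjusted p = 0.00231). Hoxd13 moved the other way, with 5.51, 6.03, 5.50, 5.92 and 6.86 against 7.33, 7.33, 6.54, 7.33 and 7.15 in controls (change -1.17, adjusted p = 0.00260).

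Within-array SD averaged 1.96 with wild-type flora and 1.73 in controls, with no overlap between the groups. With within-array SD as a covariate 0 Hox genes, and 1 gene in all, were called. Since the groups did not overlap in within-array SD, that fit cannot separate it from flora. The Hoxa13 estimate then turned to -0.13, and those of Hoxd13 and Hoxd10 were -0.85 and -1.11. Hoxd10 averaged 6.42 ± 0.27 with wild-type flora and 7.61 ± 0.48 in controls. It was among 8 members that were non-overlapping and lower, where 24.6% of all genes were.

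Recipients of transgenic flora differed from neither other axenic group by a called Hox gene. Against recipients of wild-type flora 0 of 37 members and 0% of all genes were called by limma. An unadjusted p under 0.05 was found for 6 of 37 members and for 6856 of all 19908 genes. Hoxd10 averaged 6.97 ± 0.37 with transgenic and 6.42 ± 0.27 with wild-type flora (adjusted p = 0.0859). Without transgenic-flora mouse TG749, 5 Hox genes were called among 4700 genes.

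Against controls, 0 members were called by limma (0.337% of all genes). An unadjusted p under 0.05 was found for 5 of 37 members and for 3613 of all 19908 genes. Hoxd13 had 7.10, 5.47, 6.79, 5.79 and 6.28 with transgenic flora, against 7.33, 7.33, 6.54, 7.33 and 7.15 in controls (difference -0.85, adjusted p = 0.186). Without transgenic-flora mouse TG922, 8 Hox genes were called among 5307 genes. That mouse had the lowest within-array SD of its group, 1.66.

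The gauge of each mouse was the mean over posterior members minus the mean over anterior members, each gene taken as the difference from its own mean over 35 mice. It averaged 0.00 ± 0.08 in DSS-treated transgenic, 0.04 ± 0.31 in untreated transgenic, -0.23 ± 0.21 in DSS-treated wild-type and 0.36 ± 0.32 in untreated wild-type mice (SD, n = 5 each). In axenic mice it averaged -0.04 ± 0.16 with transgenic flora, -0.02 ± 0.11 with wild-type flora and -0.10 ± 0.14 in controls. The groups overlapped in all 7 comparisons. The difference was -0.59 for DSS against untreated in wild-type mice, larger than the pooled SD of 0.27, and -0.03 in transgenic mice. No p is given for this score, whose members were chosen with results of these data known.

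Within untreated mice the gauge ran from -0.34 to 0.67. It was 0.21, -0.22, 0.42, -0.34 and 0.11 in transgenic mice TG26, TG28, TG29, TG31 and TG631. In wild-type mice WT10, WT11, WT7, WT8 and WT9 it was 0.57, 0.67, 0.45, 0.25 and -0.14. Transgenic mice TG28 and TG31 and wild-type mouse WT9 were the 3 below 0. The same mice had the 3 lowest untreated Hoxb13 levels, 8.89, 8.53 and 10.33. Hoxb13 is itself part of the gauge and its most variable member, so this is no separate observation.

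Over all 35 mice the anterior part of the gauge moved with within-array SD. Of the posterior part the mean of the HoxA genes rose with it, while Hoxc9 to Hoxc13 and Hoxd9 fell. Taken singly, Hoxa13 was the only posterior HoxA gene with a called slope. Across the 35 mice, with each group's mean removed, the anterior mean was lower on arrays with larger within-array SD (Pearson's r = -0.87, Spearman's rho = -0.87, and r = -0.86 without the 2 mice farthest from the median SD, n = 35). For the mean of all posterior members r was 0.19 (rho 0.20, and 0.28 without 2 mice). For the 4 posterior HoxA genes r was 0.72 (rho 0.67, and 0.68 without 2 mice), and for the 5 posterior HoxD genes 0.00 (rho -0.11, and 0.08). In the 10 untreated mice the gauge itself had r = 0.81 (rho 0.71, and 0.60 without 2 mice) with within-array SD. There the posterior mean had r = 0.64 (rho 0.62, and 0.36 without 2 mice). The posterior HoxD genes had r = 0.56 in these mice (rho 0.38, and 0.29 without 2 mice). These are descriptions over mice that share an array scale, and carry no p.

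Gene by gene, limma slopes on within-array SD over 35 mice with group terms called 80.2% of genes outside the Hox list, 43% with a negative and 37.2% with a positive slope. Of the 21 anterior members 16 had a negative and 1 a positive slope, and of 7941 other genes below the 40th percentile of signal 75.8% had a negative one. All 9 HoxC genes had a negative slope, with Hoxc6 at -3.55 per unit of SD. Of the 16 posterior members 6 were negative, Hoxc9 to Hoxc13 and Hoxd9, and 1, Hoxa13, positive (7.60, adjusted p = 3.18e-09). The other posterior HoxA genes did not pass (adjusted p = 0.106 for Hoxa9, 0.320 for Hoxa10 and 0.366 for Hoxa11). Hoxb13 (2.44, adjusted p = 0.255), Hoxd13 (adjusted p = 0.489), Hoxd10, Hoxd11 and Hoxd12 did not pass the threshold.

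**Figure D4:**
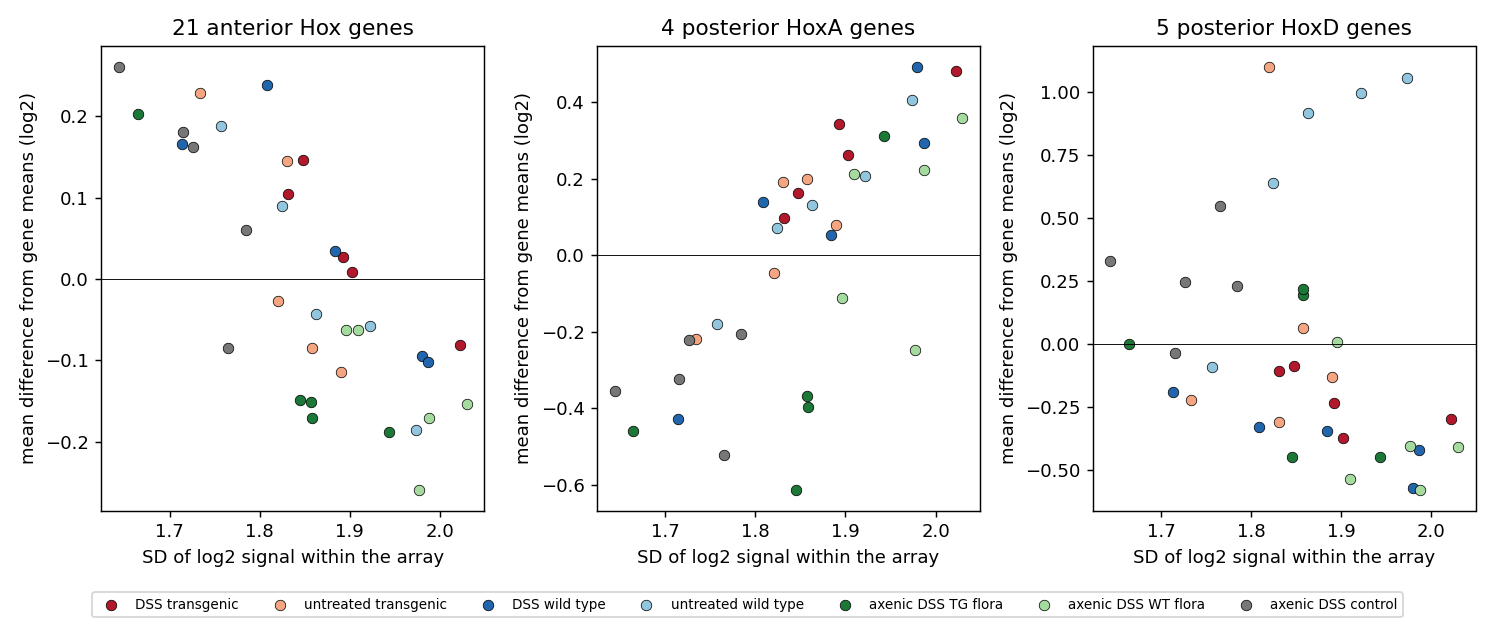
Mean difference from gene means (log2) of 21 anterior Hox genes (left), 4 posterior HoxA genes (middle) and 5 posterior HoxD genes (right) against the SD of log2 signal within the array, 35 mice coloured by group. The anterior mean falls and the posterior HoxA mean rises across arrays, whereas the HoxD mean has r = 0.00 once group means are removed.

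Which other genes follow the gauge within untreated mice was asked with a slope on the gauge, genotype being a term in the model. Slopes passed the threshold for 6489 of 19871 genes outside the Hox list, or 32.7%, 3379 of them positive. The named genes with the largest positive slopes were Casp14, a caspase of keratinocyte differentiation (3.77, SE 0.77), Egln3, an oxygen-sensing hydroxylase (2.88, SE 0.32), Best2, an anion channel of colonic goblet cells (2.62), and Bmp2, a growth factor (2.51). The largest negative slopes were those of Fabp2, the intestinal fatty acid-binding protein (-3.76, SE 1.11), Plet1 (-3.19) and B3gnt6, the core 3 O-glycan synthase (-3.14).

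With within-array SD as a covariate 17 of these slopes were called (0.0856%), 2 positive and 15 negative, and 0 with the posterior mean alone as the gauge. Fabp2 (adjusted p = 0.0359) and Cldn15, a claudin of the small intestine, remained called with that covariate. The count was 716 without wild-type mouse WT9, 1345 without transgenic mouse TG31, 3420 without wild-type mouse WT11 and 9776 without transgenic mouse TG29. In DSS-treated conventional mice 9879 genes followed the gauge (49.7%), and 0 by limma with the covariate (1152 at an unadjusted p under 0.05). In axenic mice 1 gene (0.00503%) did, and 0 with the covariate (736 at an unadjusted p under 0.05). Without wild-type mouse WT52 or WT55 the count in DSS-treated mice was 2370 or 3903, and the axenic count ran from 0 to 2 without 1 mouse.

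Hoxb13 was also used by itself in place of the gauge, a choice made after seeing the gauge results. Its slope on within-array SD did not pass over 35 mice, but in the 10 untreated mice Hoxb13 had r = 0.62 with within-array SD (rho 0.70, and 0.39 without 2 mice). Slopes on Hoxb13 are in log2 signal per log2 unit of Hoxb13. In untreated mice 610 genes outside the Hox list followed it, 453 with a positive and 157 with a negative slope, or 3.07%. Of these, 448 and 154 had the same sign in transgenic and in wild-type mice fitted alone. With within-array SD as a covariate 230 followed it (1.16%), 128 positively.

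Of the 36 other Hox genes 2 followed Hoxb13 in untreated mice, where 3.07% of genes outside the Hox list did. They were Hoxc6 (-0.44, SE 0.08, adjusted p = 0.0158, limma) and Hoxa2 (-0.39, SE 0.08, adjusted p = 0.0366), both anterior and negative. Hoxc6 had 5.46, 6.15, 5.52, 6.21 and 5.25 in transgenic mice TG26, TG28, TG29, TG31 and TG631, high in the same pair that was low in Hoxb13. Hoxa13 had a slope of 0.79 (adjusted p = 0.0516), Hoxd13 of 0.91 (adjusted p = 0.0904) and Hoxd11 of 0.60 (adjusted p = 0.131). With the within-array SD covariate Hoxc6 alone was called (-0.33, adjusted p = 0.0370). The count of Hox genes was 0 without transgenic mouse TG26 or TG31, 1 without TG29, TG631, WT7, WT9 or WT10, 4 without WT8 and 7 without WT11. All genes called numbered 63 without TG26, 21 without TG31, 972 without WT8 and 3539 without WT11. In the fits with 1 Hox gene they numbered 163 to 319. These Hox counts by themselves are therefore no result about Hox genes. In DSS-treated and in axenic mice 0 of 36 followed Hoxb13 by limma (0.00503% and 0.146% of other genes did), with 5 and 1 at an unadjusted p under 0.05. Genes at that unadjusted p numbered 572 and 1009.

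Among the named genes with positive slopes on Hoxb13 in untreated mice, Atp12a, the colonic proton-potassium pump, had 9.21, 6.60, 8.56, 6.41 and 8.77 in untreated transgenic mice TG26, TG28, TG29, TG31 and TG631, and 9.50 to 10.37 in untreated wild-type mice. Mice TG28 and TG31 were lowest, as for Hoxb13. Its slope was 1.25 (SE 0.10, adjusted p = 0.000295, limma). Reg4, a lectin of deep crypt secretory cells, had 9.83 and 8.45 in mice TG28 and TG31 and 11.66 to 12.45 in the other 8 untreated mice (slope 1.47). Other large positive slopes were Casp14 (1.60), Slc37a2, a sugar phosphate exchanger (1.33), Best2 (1.23), Pde7a, a cAMP phosphodiesterase (1.21), Cyp2f2 (1.21), Cyp2c68 (1.19), Ly6g (1.17) and the pentraxin Mptx1 (1.16).

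Among the named genes with negative slopes, Fabp2 had 11.62 and 11.04 in transgenic mice TG28 and TG31, against 6.29 to 9.21 in the other 8 untreated mice (slope -1.91, SE 0.35, adjusted p = 0.0247, limma). B3gnt6 had 9.54 and 9.26 in the same pair and 5.57 to 7.04 in the others (slope -1.56). Isx, an intestinal homeobox gene that limits vitamin A uptake, had 8.41 and 8.16 and 5.50 to 6.90 in the others (slope -1.11). Sptssb (-1.31), an immunoglobulin kappa variable segment (-1.07), Cldn15 (-0.95), B4galnt1 (-0.95), Cgref1 (-0.83), Chn2 (-0.82) and Alpi, the intestinal alkaline phosphatase (-0.81), completed the 10 with the largest negative slopes.

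These slopes rested largely on 2 mice. Both had low Xist, which was high in TG26, TG631, WT7 and WT8, and with Xist as a covariate 151 genes followed Hoxb13. Without transgenic mice TG28 and TG31, 0 genes followed Hoxb13 in the other 8 untreated mice. Leaving out 1 mouse gave counts from 20, without transgenic mouse TG31, to 3531, without wild-type mouse WT11. The other transgenic mice gave 62 without TG26, 175 without TG631, 317 without TG29 and 1320 without TG28. Wild-type mice gave 161 without WT9, 181 without WT7, 291 without WT10 and 967 without WT8.

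Mice that share no sample with the untreated fit gave a second look. All of them had DSS, so colon position and DSS injury cannot be told apart in their Hoxb13 levels. In axenic mice the median slope on Hoxb13 was -0.32 over 11 immune and -0.27 over 12 fibroblast markers, against -0.002 over all genes. In DSS-treated conventional mice these medians were 0.04 and -0.11, against -0.002 over all genes. No immune or fibroblast marker was called in either set. In 15 axenic mice 29 genes followed Hoxb13 (0.146%), 27 positively, within group. Of these 22 were also called in untreated mice with the same sign, which is 75.9% of the axenic list and 3.61% of the untreated list, and all 22 slopes were positive. In 10 DSS-treated conventional mice 1 gene, Tgm3, was called (0.00503%), and the slopes of all 22 were positive there too. Of all 610 untreated followers 83.6% had the same sign in DSS-treated mice, against 69.2% of all genes, and 67.4% in axenic mice, against 50.7%. With the within-array SD covariate 54 genes followed Hoxb13 in axenic mice (0.272%) and 2 in DSS-treated mice (0.0101%). Then 22 genes were shared between untreated and axenic mice, 18 positive and 4 negative, and 13 genes were shared in both settings. The axenic count ranged from 11 without wild-type-flora mouse WT880 to 63 without wild-type-flora mouse WT639, which had the lowest Hoxb13 of the axenic mice, 6.89. It was also moved by leaving out WT793 (53 genes), TG446 (12), TG632 (15), CT093 (19), CT229 (15), CT517 (13) or CT677 (14). The DSS count was 0 without wild-type mouse WT52 or WT53, 2 without WT56 or WT65 and 7 without WT55.

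Tgm3, a transglutaminase that cross-links proteins, followed Hoxb13 in all 3 sets of mice. Its slope was 0.83 in untreated mice (SE 0.12, adjusted p = 0.00710, limma), 1.43 in DSS-treated mice (adjusted p = 0.00989) and 1.42 in axenic mice (adjusted p = 3.21e-05). In DSS-treated wild-type mice WT52, WT53, WT55, WT56 and WT65, Tgm3 had 10.88, 10.99, 7.38, 6.89 and 7.10, beside Hoxb13 of 9.21, 9.65, 7.43, 6.39 and 6.86. The 2 mice with higher Hoxb13 were the 2 with higher Tgm3, and also the 2 with high Xist. With Xist as a covariate the Tgm3 slope was 1.34 in DSS-treated mice (SE 0.20) and was not called (adjusted p = 0.757, limma), and in untreated mice it was 0.85 (adjusted p = 0.0346). In all 15 axenic mice Xist was low, at 5.24 or less. In axenic controls CT093, CT229, CT465, CT517 and CT677, Tgm3 had 11.57, 9.68, 11.74, 8.49 and 12.05, and Hoxb13 had 9.74, 8.66, 9.85, 8.16 and 10.06, in the same order. The order was not the same in the other axenic groups: with wild-type flora WT098 and WT793 had Tgm3 of 9.85 and 9.42 beside Hoxb13 of 9.09 and 9.35, and with transgenic flora TG713 had the highest Tgm3 (10.49) and Hoxb13 of 9.30, below TG446 (9.67).

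The other 12 genes shared in both settings had positive slopes in both sets of mice. They were B4galnt3, a glycosyltransferase (1.01 untreated, 0.58 axenic), Itih5, a hyaluronan-binding protein (0.82 and 0.75), Aoc1, the diamine oxidase that degrades histamine (0.84 and 0.89), Cldn8, a barrier-forming claudin (0.83 and 0.89), Slc36a1, an amino acid transporter (0.90 and 0.56), Slc1a1, a glutamate transporter (0.72 and 0.37), Aldh1l1, an enzyme of folate metabolism (0.73 and 0.46), Capn13 (0.67 and 0.64), the cytokine Il18 (0.82 and 0.48), Sh3rf2 (0.77 and 0.35), Acsm3 (0.76 and 0.55) and the sialyltransferase St3gal6 (0.49 and 0.42). In DSS-treated mice none of these 12 was called. Their slopes there included 0.45 for B4galnt3, 0.39 for Itih5, 0.40 for Aoc1 and 0.28 for Cldn8.

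**Figure D5:**
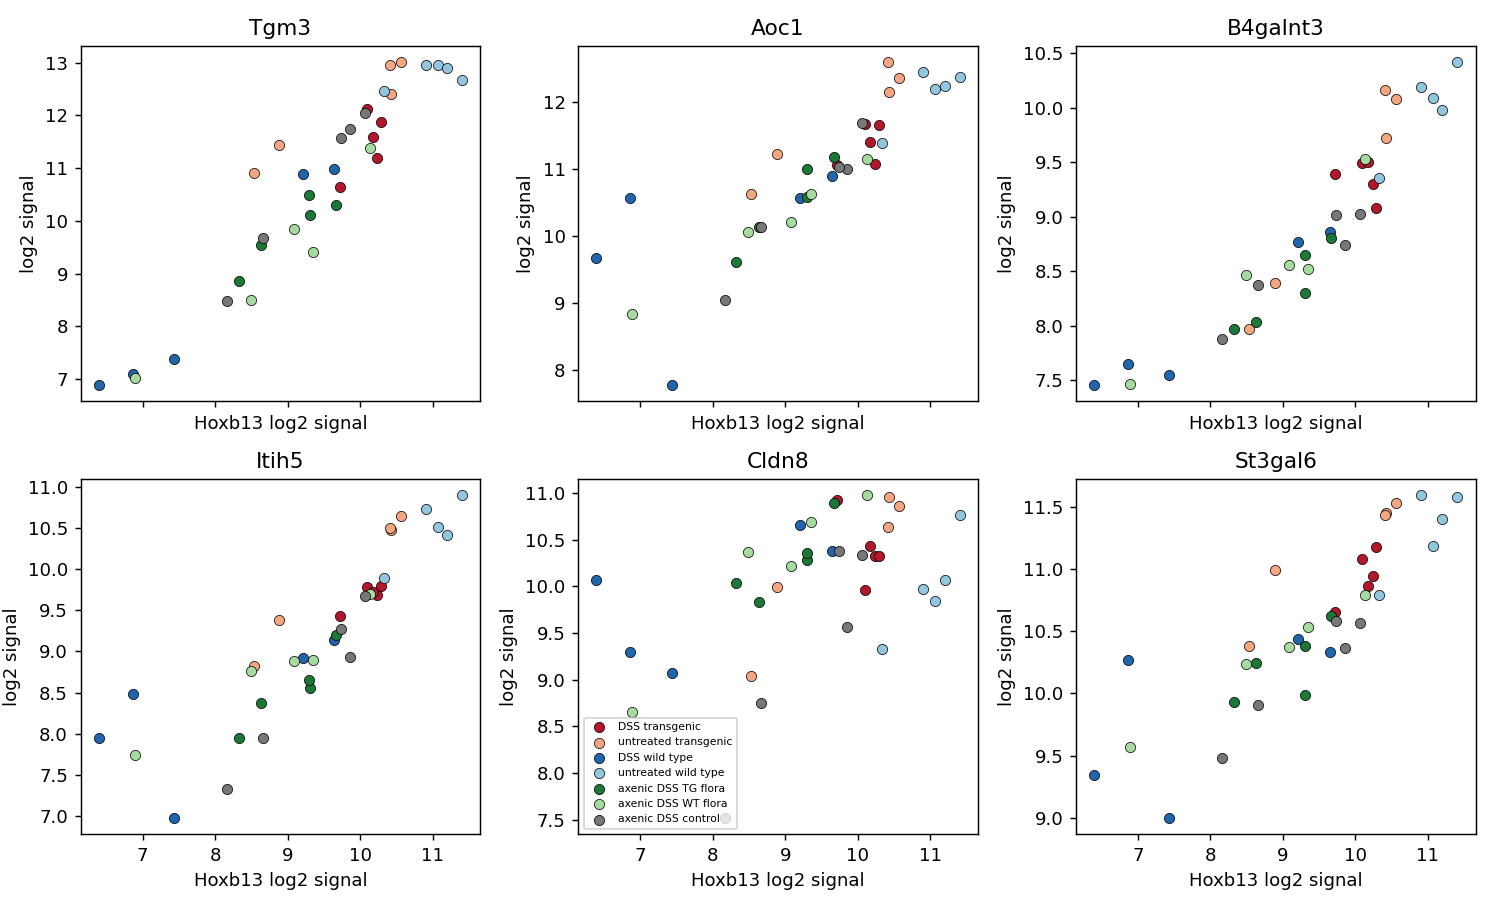
Log2 signal of 6 genes shared as Hoxb13 followers by untreated and axenic mice, against the Hoxb13 log2 signal of the same mouse, 35 mice coloured by group, each vertical axis on its own range. Tgm3 is at 6.89 to 7.38 in the 4 mice with the lowest Hoxb13 and reaches 13.01 in an untreated mouse, and Cldn8 scatters more widely; slopes were fitted within groups, so differences between the colours are no part of them.

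The gene lists show which neighbours and partners of Hox genes followed Hoxb13 in untreated mice, where 2.28% of genes did so positively and 0.79% negatively. Of 12 distal colon markers 4 were positive, Atp12a, Slc20a1, a phosphate transporter (0.96), Tgm3 and Slc37a2, with a list median of 0.55 against -0.03 over all genes. In axenic mice 2 of the 12 were called and in DSS-treated mice 1. Of 10 proximal colon markers 2 were positive, Mptx1 and the monocarboxylate transporter Slc5a8 (0.45). Of 17 small-intestinal markers 2 were negative, Alpi and Fabp2.

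Of 33 regional transcription factors of the gut 1 was positive, Hnf4a (0.32), and 2 negative, Isx and Isl2. Among 20 neighbours of the Hox clusters Tax1bp1, an autophagy receptor gene beside cluster A, was positive (0.58) and Mir196a-2 negative (-0.34, adjusted p = 0.0454, limma). None of 8 Hox cofactors, 21 genes of signals upstream of Hox, 18 Hox chromatin regulators, 16 smooth muscle, 12 fibroblast, 10 enteric neuron and glia, 11 immune or 9 pancreatic markers passed. One of 12 epithelial markers did (Cdh1), and 1 of 15 anal squamous markers (Sprr3, negative).

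The miR-196 genes lie inside the Hox clusters and their products target Hox transcripts. Their mature sequences, from RefSeq (build GRCm38.p6), are shown because both share 1 seed (bases 2 to 8, in capitals) and differ elsewhere. The mature strand of miR-196a is encoded at chr15:102973365-102973386 (plus strand, Mir196a-2, cluster C) and chr11:96265187-96265208 (plus strand, Mir196a-1, cluster B), and miR-196b at chr6:52230129-52230150 (minus strand, cluster A).
mmu-miR-196a-5p: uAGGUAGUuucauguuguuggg
mmu-miR-196b-5p: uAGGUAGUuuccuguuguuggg
The arrays measure total RNA with probe sets named for these genes, not the mature strands. Mir196a-2 averaged 5.05 ± 0.16 with wild-type flora and 5.66 ± 0.39 in axenic controls (change -0.61, adjusted p = 0.00880, limma), a comparison in which most genes were called. Its slope on within-array SD was -2.56 (adjusted p = 5.14e-06), negative like those of the 9 HoxC genes, and with that SD as a covariate its slope on Hoxb13 was not called (-0.24, adjusted p = 0.172). Mir196b did not pass on Hoxb13 (-0.20, adjusted p = 0.0786).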

How the data were processed

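Total RNA (200 ng per mouse) from 35 colons was read on 1 Affymetrix array each (Mouse Gene 1.0 ST). The values deposited by the authors are log2 signals, normalized with RMA in Affymetrix Expression Console 1.1 per the submitters' processing notes. Of 28090 probe sets 21639 had 1 gene symbol, 1539 several and 4912 were not listed. Genes with several probe sets took the one with the highest mean, leaving 19908 genes, and the number of arrays limits the precision. Groups follow titles and design text. Labels give no batch, cage, sex or date and do not say how the mice of a group were housed, so p-values measure the spread between these mice.

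Members, lists and tests were chosen with earlier results of these data known. Comparisons of 2 groups (7), 1 interaction and slopes on the Hox gauge, on Hoxb13 or on within-array SD were fitted to all genes with limma 3.58.1 (R 4.3.3; lmFit and eBayes, two-sided), with group terms, and adjusted by Benjamini-Hochberg over all genes tested. The threshold for a call was an adjusted p under 0.05. SE is the moderated standard error and ± the SD. The gauge, tables and figures used Python 3.11.15, numpy 2.4.6, pandas 2.3.3, scipy 1.17.1 and matplotlib 3.10.9. The fits were tested on simulated data in which genes varied independently of each other. Those data lack the array scale that the real genes share, so they do not test how the slopes behave under it.

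Called Hox genes are given in full. Named followers are the 10 largest positive and 10 largest negative slopes among called genes with the same sign in both genotypes, leaving out predicted names, and up to 4 members of each list with the smallest p; for Hoxb13 the rule was applied after its values were seen. Where fewer than 5 qualified in a direction, the 5 smallest p were to be taken. The text gives a part of these. Promoter and miRNA sequences come from RefSeq tables of build GRCm38.p6; annotation build of the arrays: not given in the sources used here. Alternatives were array weights (whose iteration did not reach its tolerance in some fits), renewed quantile normalization, trend and robust variance, the mean of probe sets, genes above the 40th percentile, covariates of smooth muscle, Xist or within-array SD, no genotype term, other gauges, all 35 arrays in 1 model and leaving out each mouse. Some were chosen after seeing the data, as the closing section says.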

Additional observations from a re-analysis of the deposited data

Results flagged for a closer look

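In 25 measures (22 Hox genes and 3 scores) over 7 groups, 175 sets of 5 mice were screened for a mouse whose gap to its nearest neighbour was more than 0.71 of the set's range. Chance gives about 1 such mouse in 20 sets, and 11 were found in the 175 sets, which is close to that rate.

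Among untreated mice, wild-type mouse WT9 had Hoxd11 at 6.42, below the other 4 at 7.78 to 8.23. Transgenic mouse TG29 had Hoxd11 at 8.19, above the others at 6.32 to 6.86, transgenic mouse TG631 had Hoxd4 at 5.42, below 5.69 to 5.79, and wild-type mouse WT11 had Hoxa6 at 6.65, below 7.09 to 7.24. Among axenic mice, control CT465 had Hoxd13 at 6.54, below 7.15 to 7.33, and transgenic-flora mouse TG446 had Hoxa7 at 6.97, below 7.32 to 7.42.

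The other 5 belong to transgenic-flora mouse TG922, which had the lowest within-array SD of its group (1.66). Its anterior mean was 0.20, against -0.19 to -0.15 in the other 4. Hoxb1 was at 7.85 (others 7.12 to 7.22), Hoxc4 at 4.91 (4.40 to 4.53), Hoxc6 at 6.21 (5.38 to 5.58) and Hoxd1 at 5.81 (5.37 to 5.46). These genes are part of the anterior mean and come from the same array, so the 5 flags are not separate.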

How the results depend on the processing

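Of the values for single Hox genes between groups, 461 under an alternative kept direction and call, 43 lost the call, 4 gained it and 6 reversed. Of slopes of single genes 674 kept both and 166 lost the call. The reversals were Hoxb13 with transgenic minus wild-type flora (-0.27 with the smooth muscle covariate, -0.22 without wild-type-flora mouse WT639 within a range of -0.22 to 0.59 without 1 mouse), Hoxb13 with transgenic flora minus control (0.32, smooth muscle), and, with the within-array SD covariate, wild-type flora minus control for Hoxa13 (-0.13), Hoxb3 (0.049) and Hoxc6 (0.24). Within-array SD and Xist as covariates, other than for the gauge in untreated mice, and all settings for the genes following Hoxb13, were chosen after seeing the data; where no cause is named it was not tested.

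Counts of called Hox genes moved as follows, and the number of all genes called moved with the setting too. For DSS in transgenic mice that number ran from 178 to 1668 without 1 mouse. The Hox counts below are given without it and so are no result about Hox genes. For DSS in wild-type mice there were 9 with array weights, 1 with smooth muscle, 8 with within-array SD and 3 to 5 without 1 mouse. For DSS in transgenic mice there were 3 with weights, 0 with trend and robust variance, above the 40th percentile, with smooth muscle, with Xist or in 1 model of 35 arrays, and 0 to 2 without 1 mouse. Transgenic against wild-type after DSS gave 1 with weights. Transgenic against wild-type flora gave 6 with weights, 1 in 1 model and 0 to 5 without 1 mouse. Wild-type flora against controls gave 9 after quantile normalization, 8 above the 40th percentile and 0 with within-array SD. Transgenic flora against controls gave 15 with weights, 10 with smooth muscle and 0 to 8 without 1 mouse. The interaction gave 1 above the 40th percentile, 1 with Xist and 0 to 1 without 1 mouse. Gauge differences moved to -1.10 for DSS in wild-type mice (members above the 40th percentile), to -0.046, 0.31 and -0.18 for wild-type flora against controls (above the 40th percentile, scaled genes, posterior mean alone), and to 0.27 and -0.14 for transgenic flora against controls (scaled, posterior alone).

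Followers of the gauge in untreated mice numbered 610 with Hoxb13 alone, 839 with the mean of Hoxb13 and Hoxd13, 0 with the posterior mean alone, 4196 after quantile normalization, 17 with within-array SD, 4286 above the 40th percentile (fewer genes tested) and 716 to 9776 without 1 mouse. In DSS-treated mice they numbered 3809 after quantile normalization, 0 with within-array SD and 2370 to 11031 without 1 mouse. In axenic mice they numbered 2 with weights, 0 after quantile normalization, with smooth muscle or with within-array SD, and 0 to 2 without 1 mouse. Hox genes following Hoxb13 numbered 24 with weights, 5 after quantile normalization, 1 with within-array SD and 0 to 7 without 1 mouse. All genes following Hoxb13 in untreated mice numbered 13841 with weights, 1657 after quantile normalization, 257 with smooth muscle, 151 with Xist, 230 with within-array SD, 0 without mice TG28 and TG31 and 20 to 3531 without 1 mouse. In DSS-treated mice they numbered 2 with within-array SD, 0 with Xist and 0 to 7 without 1 mouse, and in axenic mice 54 and 11 to 63. No paired analysis was possible because the groups share no replicate numbers. The values carry no detection call, so which of the 22 members below the 40th percentile of signal lay above background is not known.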

Other observations

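Mir196a-1, the miR-196a gene inside cluster B, read lower in axenic than in conventional mice. It averaged 5.17 ± 0.27 with transgenic flora, 5.42 ± 0.27 with wild-type flora and 5.29 ± 0.26 in axenic controls, against 6.22 ± 0.14 in DSS-treated transgenic, 6.30 ± 0.26 in untreated transgenic, 6.14 ± 0.51 in DSS-treated wild-type and 6.38 ± 0.32 in untreated wild-type mice (SD, n = 5 each). The highest axenic mouse had 5.78 and the lowest conventional mouse 5.36, a DSS-treated wild-type one. Conventional and axenic mice were not compared by a test here, and between them housing, flora and experiment cannot be told apart. Mir196a-2 and Mir196b showed group means of 5.05 to 5.66 and of 5.49 to 5.75.

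Outside the 13 genes shared in both settings, Ctse, the protease cathepsin E, and Trpm6, a magnesium channel, also rose with Hoxb13 in untreated (0.74 and 0.47) and in axenic mice (0.80 and 0.77). With the within-array SD covariate 4 genes fell with Hoxb13 in both sets: B4galnt1, a ganglioside synthase (-1.13 in untreated mice), Emp1 (-1.12), the sulfate transporter Slc13a1 (-0.54) and the integrin Itga2 (-0.51).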
